A study of Mus musculus with 4 samples.

Results

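The mRNAs of 10 ubiquitin ligase genes (Cbl, Cblb, Itch, Nedd4, Nedd4l, Rnf128, Peli1, Traf6, Smurf1 and Smurf2) were examined for N6-methyladenosine (m6A) in mouse natural killer (NK) cells. The genes were taken by symbol, and their peaks are the distinct entries of the deposited peak list that carry the Ensembl identifier of 1 of them. They held 13 of the 20727 distinct peaks of the list, in 8 of the 10 genes, and no peak was listed for Rnf128 or Peli1. The material was splenic NK cells of C57BL/6 mice, in 2 groups of 2 libraries each, an m6A immunoprecipitate and an input RNA. Poly(A) RNA had been broken into short fragments, and an m6A antibody (Synaptic Systems) had been used for the immunoprecipitates and no antibody for the inputs. Per the study's methods, all the cells came from mice that carried the IL-15 plasmid pLIVE-IL-15, which was used to amplify NK cells in vivo, so both groups describe NK cells exposed to raised IL-15. The labels describe no other genotype or treatment and do not say how many mice were pooled. Per the study's methods, young adult mice were used throughout.

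Ubiquitin ligases attach ubiquitin to chosen proteins and thereby mark them for degradation, sorting or signalling. CBL proteins carry a RING domain and act on activated tyrosine kinases and their adaptors, and CBL-B is known as a brake on the activation of T cells and NK cells. The NEDD4 family carries a catalytic HECT domain and WW domains that recognise short proline-rich motifs in the target. m6A is a methyl mark on adenosine, commonly found in a DRACH sequence (where D stands for any base but C, R for a purine and H for any base but G), and it is known to affect splicing, translation and decay of mRNA.

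The list gave each peak 1 fold enrichment, the ratio of immunoprecipitate to input reads, and 1 log10 of an unadjusted p-value, and named none of the 4 libraries. It held no value per library, so no replicate error, depth or test between samples could be given, and the values below are the authors' values for each peak. The input libraries are the only controls, and they enter every fold enrichment as its denominator. A peak on a gene is not a measure of how strongly the gene is expressed. Of 7 NK cell marker genes 7 had a peak. The T cell markers Cd3d and Cd3e had peaks and Cd4, Cd8a and Cd5 had none, the B cell markers Cd79a and Pax5 had peaks and Ms4a1 had none, and 4 of 4 myeloid markers had peaks. The highest fold enrichment was 2.06 at the NK cell markers, 3.56 at the myeloid ones, 30.3 at the T cell markers and 75.9 at the B cell markers. Whether RNA from T cells, B cells or myeloid cells entered any peak of the ligase genes was not tested.

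A peak was present in 8 of the 10 ligase genes (80.0%, 95% Wilson interval 49.0 to 94.3), beside 46.3% of all protein-coding genes of the annotation. The latter share lay outside the interval, but it counts every annotated gene, whatever its expression in these cells. Expression was not measured here, and the 10 genes were chosen with earlier results of these data known. The gap is therefore not read as a property of the ligases. At least 5-fold enrichment, which the study required of genes in its pathway analysis, was reached in 5 of the 8 genes with a peak, namely Cbl, Nedd4, Nedd4l, Smurf1 and Smurf2. That was 62.5% (30.6 to 86.3), and the share among all protein-coding genes with a peak was 43.4%, inside this interval. By peak, 6 of 13 reached it (46.2%), beside 29.5% of the peaks of all protein-coding genes and 34.6% of all peaks. A peak-calling p-value under 0.001 was found for 6 of the 13 peaks, beside 61.5% of all peaks, and 3 of the 13 passed both limits (23.1%, 8.18 to 50.3), beside 19.0% of all peaks. A peak with such a p-value was present in 5 of the 10 genes (50%, 23.7 to 76.3), beside 34.0% of all protein-coding genes. Both background shares were inside the intervals of the ligases. More than 1 peak was present in 4 of the 8 genes (50%), beside 46.7% of all protein-coding genes with a peak. The median fold enrichment of the 13 peaks was 2.84 (range 1.67 to 81.6), beside 2.37 over the peaks of all protein-coding genes. No ligase peak lay near the limit of 5, since the values jumped from 2.84 at Traf6 to 9.48.

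**Figure D1:**
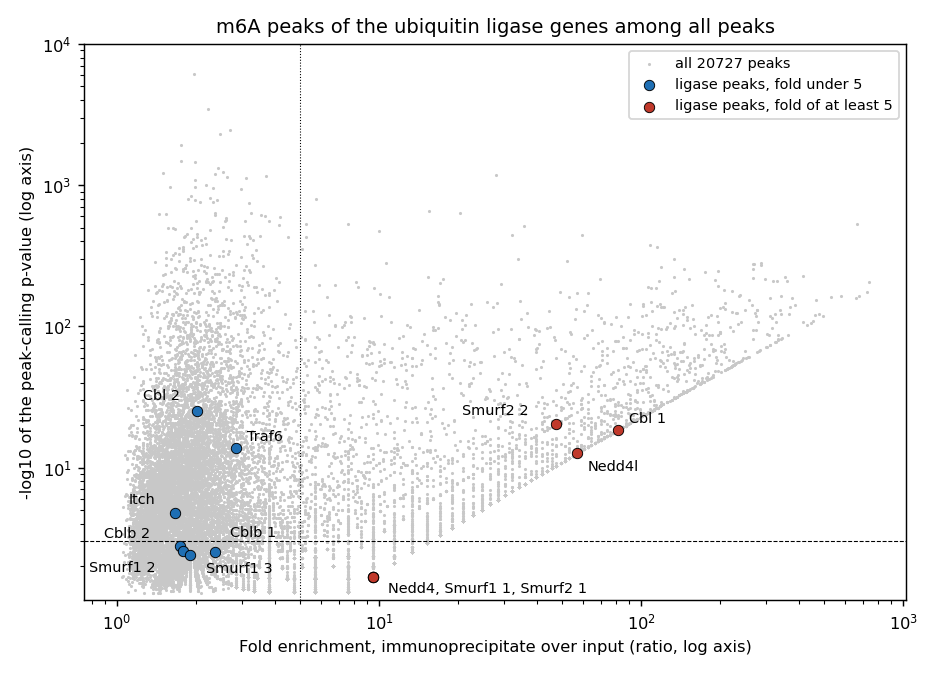
Fold enrichment (horizontal, log axis) and −log10 of the peak-calling p-value (vertical, log axis) of all 20727 peaks in grey and of the 13 peaks of the ubiquitin ligase genes in colour. The dotted line marks a fold enrichment of 5 and the dashed line a p-value of 0.001. Numbers after a symbol count the peaks of a gene from its 5′ end. The ligase peaks form a group of 7 between 1.67 and 2.84, a group of 3 at the same point (9.48) under the dashed line and a group of 3 from 47.4 to 81.6.

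The following DRACH sites lay nearest the centre of the exonic part of 7 ligase peaks. They were found by searching for the motif, so their presence is no evidence of methylation. Which bases of a span carried the reads is not known. The first 6 belong to the peaks with the smallest p-values that touched the longest coding transcript of their gene. The Smurf1 site, at the end of its coding sequence, was added after the values were seen. Each is 21 nt of the RNA strand written 5′ to 3′ as DNA letters (GRCm38), with the DRACH letters in capitals.
Cbl 3' UTR, chr9:44143365-44143385, minus strand: tttgggtgGGACAagagagaa
Smurf2 coding sequence, chr11:106830963-106830983, minus strand: atgaactcAAACCaaatggca
Cbl coding sequence, chr9:44158558-44158578, minus strand: cacaaatgGAACCcagagcag
Traf6 3' UTR, chr2:101700824-101700844, plus strand: atcaacctGAACTtgggacac
Itch 3' UTR, chr2:155226748-155226768, plus strand: tgcttttaAGACCtttttctc
Cblb 3' UTR, chr16:52207826-52207846, plus strand: ttcgaaggAGACTttctggaa
Smurf1 coding sequence, chr5:144879385-144879405, minus strand: gaagctgcTGACAgcggtgga
Of these 7 sites, the one shown for Smurf2 lay outside its peak, whose exonic part of 17 nt held no DRACH site. The site shown for Cbl in the 3' UTR was the only one of the 7 of the GGAC form. A peak is far wider than a site, so none of these letters is shown to be the methylated base.

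The CBL genes each had 2 peaks, and both values reached further in Cbl than in Cblb, with no replicate error to set beside the gap. Cbl (ENSMUSG00000034342, chromosome 9, 44142976 to 44234049, minus strand) encodes c-CBL, the ligase of receptor and cytoplasmic tyrosine kinases. Its first peak (44156869 to 44158655) had the highest fold enrichment of the 13, 81.6, with a log10 p of -18.5, and 97.2% of all peaks in the list had a lower fold. This peak touched the coding sequence in exon 11 of 16, with its centre 878 nt before the stop codon, and 142 nt of its 1787 nt span were exonic in 4 coding isoforms. The second Cbl peak (44142976 to 44143815) had a fold enrichment of 2.02 and the smallest p-value of the 13, with a log10 p of -25.0. It covered the last 840 nt of a 3' UTR of 8469 nt and reached the annotated 3' end of the transcript. The 2 Cbl peaks thus ranked in opposite order by fold enrichment and by p-value.

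Cblb (ENSMUSG00000022637, chromosome 16, 52031225 to 52208048, plus strand), which encodes CBL-B, had 2 peaks and neither passed a p-value of 0.001 or a fold enrichment of 5. The first (52031639 to 52033022) had a fold enrichment of 2.37 (log10 p -2.53). It joined exons 1 and 2 in the 5' UTR, and its centre lay 31 nt before the start codon. The other, of 181 nt (52207717 to 52207897), lay in the 3' UTR 151 nt before the transcript end and was enriched 1.74-fold (log10 p -2.80). Fold enrichments of 2.37 and 1.74 were higher than those of 45.4% and 25.4% of all peaks.

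Among the HECT ligases the fold enrichments ran from 1.67 to 56.9, and the peaks at 9.48 had a log10 p of only -1.69. Itch (ENSMUSG00000027598, chromosome 2, 155133509 to 155226855, plus strand) encodes the ligase that is lost in the itchy mouse and that acts on JUN proteins among others. Its single peak (155226705 to 155226825, 121 nt) had the lowest fold enrichment of the 13, 1.67, with a log10 p of -4.75, and ended 28 nt before the 3' end of the transcript. Nedd4 (ENSMUSG00000032216, chromosome 9, 72662346 to 72749852, plus strand), the founding member of the family, had 1 peak (72663234 to 72668813) with a fold enrichment of 9.48 (log10 p -1.69). On the longest coding transcript that peak fell in intron 1, and it touched 134 nt of the 5' UTR of 1 other coding isoform. Nedd4l (ENSMUSG00000024589, chromosome 18, 64887705 to 65217828, plus strand), known for its action on the epithelial sodium channel, had 1 peak (65165791 to 65170225) with a fold enrichment of 56.9 (log10 p -12.6). Its span of 4435 nt lay wholly in the last exon of a retained-intron transcript, and 60 nt of it were coding exon in 6 of the 19 coding isoforms. The longest coding transcript skips these 60 nt and has intron 12 there. For Nedd4 and Nedd4l the peak therefore has no position on that transcript.

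Smurf1 and Smurf2 encode closely related ligases that act on SMAD proteins and TGF-β receptors. Smurf1 (ENSMUSG00000038780, chromosome 5, 144876495 to 144965847, minus strand) had the most peaks of the ligase genes, 3, and none of them passed a p-value of 0.001. From the 5′ side, the first (144881159 to 144881637) had a fold enrichment of 9.48 (log10 p -1.69), the second (144879364 to 144879423) 1.79 and -2.57, and the third (144876555 to 144876615) 1.90 and -2.39. The second, 60 nt long, lay in the last exon with its centre 37 nt before the end of the stop codon, and was the ligase peak closest to a stop codon. The third, 61 nt long, ended 60 nt before the 3' end of the transcript.

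Smurf2 (ENSMUSG00000018363, chromosome 11, 106820066 to 106920715, minus strand) was the ligase gene with 2 peaks of a fold enrichment over 5. The first (106920266 to 106920715) covered the first 450 nt of the 5' UTR, with a fold enrichment of 9.48, a log10 p of -1.69 and a GC content of 78.9%, and it also overlapped an exon of the annotated miRNA gene Gm27322 on the same strand. The second (106828996 to 106830936) had a fold enrichment of 47.4 (log10 p -20.4). It touched 17 nt of coding exon 14 of 18 and 343 nt found only in exons of non-coding isoforms. The Smurf genes both had a peak at 9.48 with a log10 p of -1.69, a pair of values found in 845 peaks of the list. The 3' UTR of Smurf1 carried a peak (1.90, log10 p -2.39) and that of Smurf2 none. Without a depth per library, the missing peak cannot be told apart from too few reads.

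Of the RING ligases outside the CBL family, Traf6 had a peak and Peli1 and Rnf128 had none. Traf6 (ENSMUSG00000027164, chromosome 2, 101678429 to 101701669, plus strand) encodes the ligase that relays signals of the IL-1 and Toll-like receptors to NF-κB. Its peak (101700680 to 101700980, 301 nt) lay in the 3' UTR, with its centre 3331 nt downstream of the stop codon and a fold enrichment of 2.84 (log10 p -13.7). It had the highest fold enrichment of the 5 ligase peaks in a 3' UTR. Peli1 (ENSMUSG00000020134, chromosome 11, 21091291 to 21150323, plus strand) encodes Pellino 1, a partner of IRAK kinases. Rnf128 (ENSMUSG00000031438, chromosome X, 139563316 to 139673145, plus strand) encodes GRAIL, a membrane-bound ligase linked to T cell anergy. Their longest coding transcripts of 3703 and 2750 nt held 72 and 54 DRACH sites, or 19.4 and 19.6 per kb. The exonic parts of all placed peaks held 20.03 per kb. So common a motif does not bear on the missing peaks. Without a depth per library, a missing peak cannot be told apart from too few reads.

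The 6 ligase peaks with a fold enrichment of at least 5 were set beside the 7 others by what their span covered. Under 50% of the span lay in exons of coding isoforms in 5 of the 6 (Wilson interval 43.6 to 97.0%). Among the 7 others this held for 1 (2.57 to 51.3%), the peak of Cblb across its first intron. In all protein-coding genes it held for 60.8% of the 5385 peaks at or over 5 and for 25.8% of the 12865 peaks under 5. The intervals of the ligase peaks overlapped, and each included its background share. The ligase peaks thus went in the direction of all protein-coding genes, and no difference particular to the ligases is shown. In the 3 ligase peaks with the highest fold enrichment the coding-isoform share of the span was 7.95% for Cbl, 1.35% for Nedd4l and 0.876% for Smurf2. For Nedd4 it was 2.40%, and for the first Smurf1 peak 4.18%, with the other 459 nt in an exon of a retained-intron transcript. The 5' UTR peak of Smurf2 was the exception, with 100% of its 450 nt exonic. The list gives the first and last base of a peak and not its blocks, so which bases within a span carried the reads is not known.

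**Figure D2:**
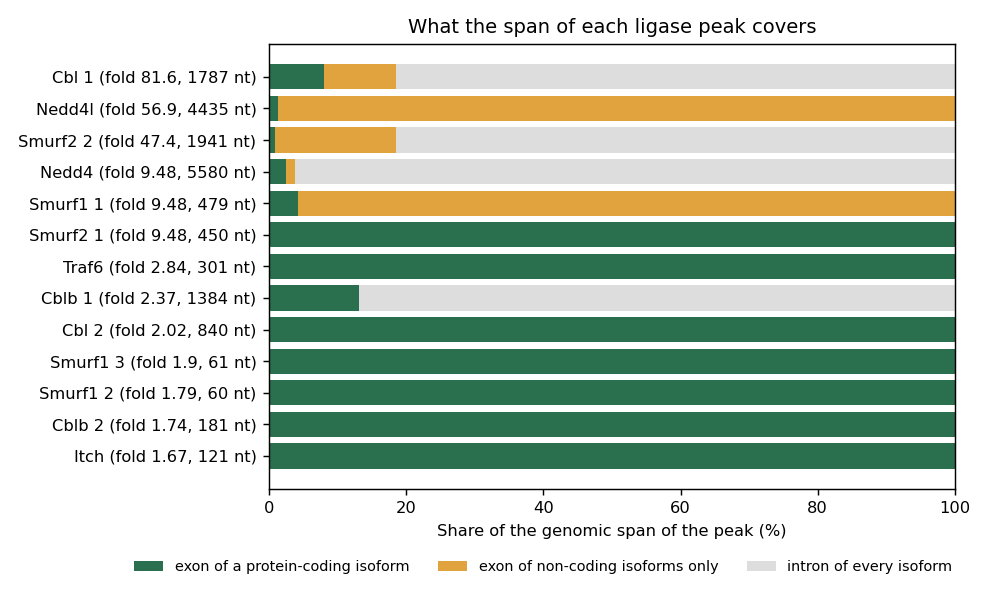
Share of the genomic span (percent) of each of the 13 ligase peaks that lies in an exon of a protein-coding isoform (green), in an exon of non-coding isoforms only (yellow) or in an intron of every isoform (grey), ordered by fold enrichment from the top. Of the 6 peaks at or over 9.48, only the 450 nt peak of Smurf2 is all green, and of the 7 under 5 only the 1384 nt peak of Cblb is not.

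The fold enrichments of these 6 peaks also shared a numerical property. Among peaks between 5 and 30 in the whole list, 78.4% of fold enrichments were whole multiples of 1.897, within 0.0051 for values under 10 and 0.051 above. All 6 of the ligase peaks over 5 fell on such multiples, beside 78.9% of all peaks at or over 5. The latter share was counted with a wider tolerance for the largest values of the list. The peaks of Nedd4, Smurf1 and Smurf2 at 9.48 had 5 steps and the same log10 p of -1.69. This pair of values occurred in 845 peaks of the list, 11.8% of those at or over 5 and 4.08% of all. The 3 peaks therefore have identical values in both columns although they lie in different genes, and neither column tells them apart.

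The position of the ligase peaks was examined on the longest coding transcript of each gene, by the centre of the exonic part, which was possible for 11 of the 13. The centre lay in the 3' UTR for 5 of 11 (45.5%, 95% Wilson interval 21.3 to 72.0), beside 56.5% of all 15706 placed peaks. With the centre of the whole genomic span, which fell on an exon of the transcript for 7 ligase peaks, the share was 5 of 7 (71.4%), beside 73.7% of all peaks treated so. Among placed peaks with a p-value under 0.001 it was 3 of 5 (60%), beside 58.7%. By the exonic part, the centre lay in the coding sequence for 4 of 11 (36.4%, beside 33.5%), of which 3 had only 0.876% to 7.95% of their span in coding-isoform exons, and in the 5' UTR for 2 of 11 (18.2%, beside 9.95%). Each of these background shares was inside the interval of the ligase peaks. The centres of 2 of the 11, both of Smurf1, were at most 200 nt from the stop codon, beside 22.3% of all placed peaks. The 5 peaks in a 3' UTR, of Cbl, Cblb, Itch, Traf6 and Smurf1, had their centres 2299 to 8049 nt past the stop codon. In 4 of the 5 the peak ended within 200 nt of the 3' end of the transcript, and Traf6 was the exception at 689 nt. The same was seen for 52.7% of all 3' UTR peaks, and the interval of the ligase share (37.6 to 96.4%) included it. None of the 5 had a fold enrichment of at least 5 (0 of 5, 0 to 43.4%), beside 18.4% of all 3' UTR peaks.

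**Figure D3:**
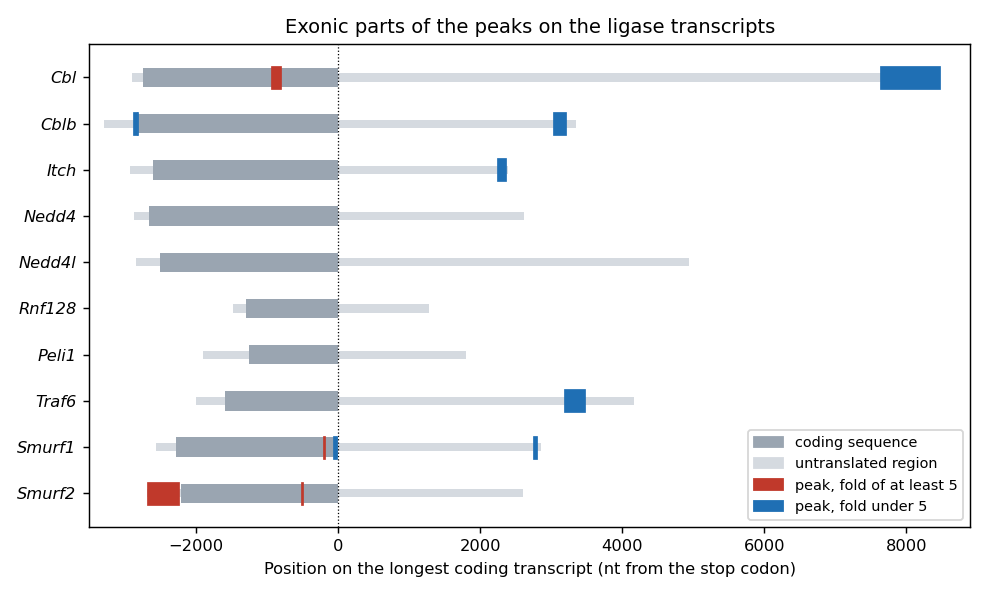
Longest coding transcript of each of the 10 ligase genes, drawn to scale in nt from the stop codon (dotted line), with the exonic parts of the 11 placed peaks in red (fold enrichment of at least 5) or blue (under 5). Blue peaks of Cbl, Cblb, Itch and Smurf1 have their last base within 200 nt of the 3' end of their transcript. Further blue ones lie in the 5' UTR of Cblb, before the stop codon of Smurf1 and inside the 3' UTR of Traf6. The red ones lie in coding sequences or the 5' UTR of Smurf2. Nedd4, Nedd4l, Rnf128 and Peli1 have no peak on the transcript drawn.

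Sequence motifs were counted on the RNA strand of the same transcripts. The exonic parts of the 11 placed peaks held 44 DRACH sites in 2254 nt, or 19.5 per kb (95% Poisson interval 14.2 to 26.2). The rest of the transcripts of these genes held 20.3 per kb and the exonic parts of all placed peaks 20.03 per kb, both inside that interval. At least 1 DRACH site was present in 9 of the 11, beside 89.9% of all placed peaks, and the exceptions were the first Smurf1 peak with 20 exonic nt and the second Smurf2 peak with 17. For GGAC, the shorter motif, 13 sites gave 5.77 per kb (3.07 to 9.86), beside 3.87 in the rest of the transcripts and 3.99 in all placed peaks. Of these 13 sites, 5 lay in the GC-rich 5' UTR peak of Smurf2 and 3 in the 3' UTR peak of Cbl. Overlapping sites were counted, and a GGAC followed by A, C or T is also a DRACH site.

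Other genes of the same pathways were taken from a list of 59 genes with 9 roles. A peak was present in 50 of the 59 (84.7%), beside 46.3% of all protein-coding genes, and a fold enrichment of at least 5 in 15 of the 50 (30%), beside 43.4%. The median of the highest fold enrichment per gene was 2.20 over the 50. The list was chosen with earlier results of these data known, and how strongly its genes are expressed in these cells was not measured here.

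In the NEDD4 family outside the 10 genes, 3 of 4 had a peak, with the highest fold enrichment at Hecw1 (15.2, log10 p -2.91) and none at Hecw2. The Hecw1 peak spanned 296791 nt, of which 9882 nt lay in exons of coding isoforms. The adaptors Ndfip1 and Ndfip2, membrane proteins that recruit and activate NEDD4 ligases, both had peaks, with the highest fold enrichment of 3.79 at Ndfip2 (log10 p -1.60). Of 9 CBL relatives and partners 7 had a peak, led by Cbll1 (7.59, log10 p -4.00), a relative of CBL that is part of the m6A writer complex. No peak was listed for Cblc or for the adaptor Sla. In the transmembrane RING group 4 of 5 had a peak. The highest was 28.4 at Znrf3, a ligase that removes Wnt receptors, with a log10 p of -96.0, in its 3' UTR. Rnf167 had none.

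Of the Pellino relatives Peli3 had a peak (11.4, log10 p -2.09) and Peli2 none, and of the other TRAF genes 4 of 5 had one, led by Traf4 (4.74, log10 p -4.73), with none at Traf3. All 6 of the listed E2 enzymes, which hand ubiquitin to the ligases, had a peak, and the highest fold enrichment was 5.69 at Ube2l3 (log10 p -3.20), the partner of many HECT ligases. All 6 of the deubiquitinases and editing enzymes had one too, led by Cyld (37.9, log10 p -8.12). Of the 20 substrates and signalling partners 17 had a peak, led by Plcg1 (39.8, log10 p -8.96), and Smad2, Map3k7 and Rel had none. The leading peaks of Cyld and Plcg1 overlapped 0 nt of the exons of coding isoforms of their gene. That of Peli3 spanned 11792 nt, of which 2491 nt lay in such exons.

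**Figure D4:**
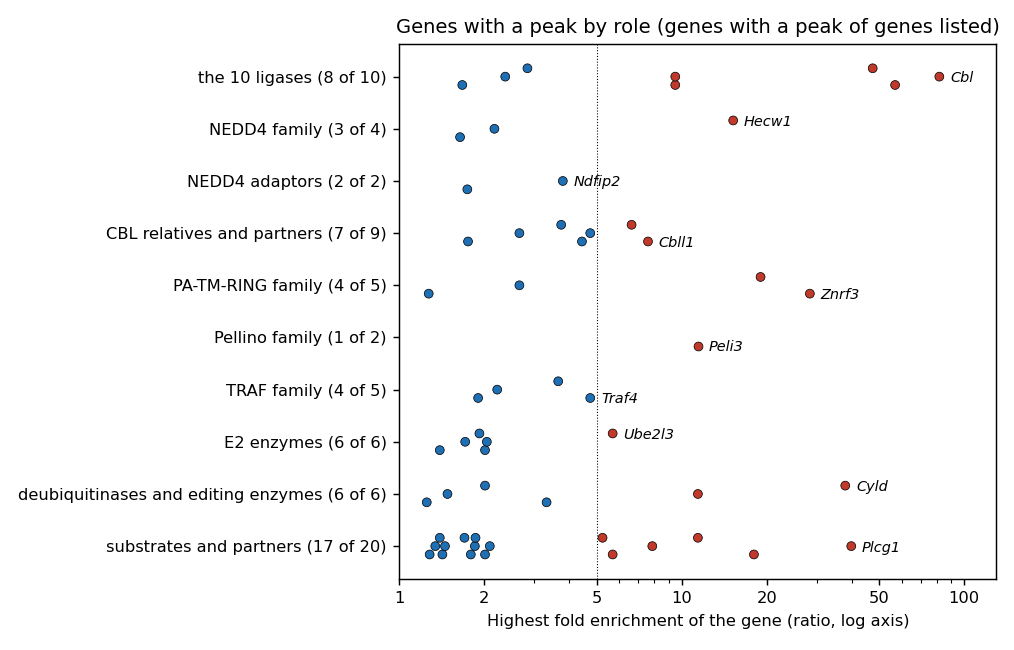
Highest fold enrichment of each gene with a peak (log axis), for the 10 ligase genes and the 59 listed pathway genes by role, with the number of genes with a peak out of those listed beside each role. Points in red have a fold enrichment of at least 5 (dotted line), and the top gene of each row is named. The ligases reach 81.6 at Cbl with a median of 9.48 over 8 genes. The substrates and partners reach 39.8 at Plcg1 and have the lowest median of the roles, 1.86 over 17 genes. Medians above that of the ligases are found in the PA-TM-RING family (10.83 over 4 genes) and the Pellino family (11.4, 1 gene). The ligase median is the value of Nedd4 and Smurf1, whose peaks at 9.48 had a log10 p of -1.69. P-values are not drawn, so the medians do not rank the roles by them.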

How the data were processed

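m6A immunoprecipitates and input RNA of splenic NK cells (2 libraries each) had been sequenced. After trimming, the authors aligned reads by HISAT2 (version 1.0) to the mouse genome (GRCm38 per the labels), called peaks with exomePeak and annotated them with ChIPseeker (version 1.0). The fold enrichment is a ratio of immunoprecipitate to input made by the authors, and the deposited score is the log10 of an unadjusted p-value. How the peak caller used the replicates is not given in the sources used here. The list names no sample, so groups could not be tested and precision between libraries is unknown.

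Of 20751 rows, 24 repeated another and were dropped. Identifiers were matched to GENCODE M21 (GRCm38), and 19 gene identifiers of the list were not found there, none of them of the 10 genes. Coordinates count from 1. The longest coding transcript of a gene placed its peaks, for 15706 peaks (75.8%). Positions are counted from the last base of the stop codon. Sequences were taken from GENCODE transcripts and matched base for base to the RefSeq GRCm38 genome. None was taken from chromosome 18. The step in fold enrichments was searched from 1.5 to 3. Wilson and exact Poisson intervals cover counting error only, and peaks of 1 gene share reads of the same RNA. Code was tested on simulated data. Python 3.11.15, pandas 2.3.3, scipy 1.17.1 and matplotlib 3.10.9 were used.

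The 10 genes, the pathway list and the rules were chosen with earlier results of these data known, so counts are set beside the share in the whole list and no test was made. All 10 genes and all their peaks are named. Of the pathway list, the gene with the highest fold enrichment in each role and the genes without a peak are named. Alternatives changed the fold and p-value limits, isoform overlap, transcript model, peak position, stop codon window and motif. The result of 1 marker gene is not reported here.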

Additional observations from a re-analysis of the deposited data

How the results depend on the processing

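Of 35 alternative values for 8 results, 21 stayed within the limits set for them (1.5 times a count or median, the 95% interval of a share or density) and 14 moved. The number of ligase peaks and of ligase genes with a fold enrichment of at least 5 (6 and 5) fell to 3 and 3 with 10-fold enrichment as the limit, to 3 and 3 when a p-value under 0.001 was also required, and to 1 and 1 when most of the span had to lie in exons of coding isoforms, an alternative chosen after seeing the data. The ligase genes with a peak fell from 8 to 5 under the limit of 0.001 on p-values, which left out Cblb, Nedd4 and Smurf1, beside 34.0% of all protein-coding genes under that limit. The share of centres in the 3' UTR (45.5%) ranged from 36.4% to 71.4% over its alternatives. The median fold enrichment rose from 2.84 to 25.1 where p-values had to be under 0.001. That limit left 6 peaks, and 25.1 falls in the gap between 2.84 at Traf6 and 47.4 at Smurf2. It rose to 9.48 where enrichment had to be 2-fold or more, a limit that raises a median of folds by construction. The pathway genes with a peak numbered 50, and 31 under the same 2-fold limit. The centres within 200 nt of the stop codon fell from 2 to 1 when the whole genomic span set the centre, to 1 with a window of 100 nt and to 0 among peaks with p-values under 0.001. The motif density was 5.77 per kb for GGAC, which is a different motif. Stricter limits leave fewer peaks by construction, and for the span and position alternatives the cause was not tested. Leaving out the 3' UTR peak of Cbl, also chosen after seeing the data, gave 19.8 DRACH sites per kb. No paired analysis was possible because the list gives no value per sample, and for the same reason no replicate could be left out. The depth of the libraries is unknown.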

Other observations

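Several partners of the ligases had far smaller p-values than any of the 13 ligase peaks, at fold enrichments of 1.72 to 5.24. These genes were chosen after their values were seen. Jun, a transcription factor gene whose protein is a target of ITCH, had a peak with a fold enrichment of 5.24 (log10 p -531). Junb, its relative, had a peak with a fold enrichment of 1.91 (log10 p -494). The most significant peak of Grb2, an adaptor that binds c-CBL, had a fold enrichment of 2.08 (log10 p -78.8). That of the NEDD4 activator Ndfip1 had 1.74 and -60.8. It spanned 8320 nt, of which 311 nt lay in exons of coding isoforms, and the centre of its exonic part fell in the coding sequence. The E2 enzyme Ube2l3 had 1.72 and -58.5 at its most significant peak, and Spry2, an inhibitor of receptor kinase signalling that binds c-CBL, had 2.66 and -40.6 in the 3' UTR.

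The editing enzyme Tnfaip3 had a highest fold enrichment of 1.25 (log10 p -22.0), and Cd2ap, a scaffold that binds c-CBL, had 3.74 with -18.5 in the 3' UTR. Cd2ap and the first Cbl peak thus had the same log10 p of -18.5 at fold enrichments of 3.74 and 81.6.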
